A study of Homo sapiens with 12 samples.

Results

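The genes described here are KLRC1, KLRC2, KLRC3, KLRC4, KLRK1 and KLRD1, 6 neighbouring genes of chromosome 12 that encode lectin-like receptors of natural killer cells. They were read in 3 human lung cancer cell lines by every probe set whose platform gene symbol is 1 of these genes, alone or joined with another KLR gene. That gave 17 of 49395 probe sets. The genes were chosen because KLRC signals were higher in the group labelled KD, for knockdown of MARK2, than in its control group in all 3 lines, so these changes of the members are given as a description, with no test. In H1650 a fall of MARK2 itself was not shown by the arrays. The label "natural killer receptor genes" names where these genes are best known, not the cells measured here.

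Total RNA was hybridised to Affymetrix PrimeView arrays, whose probe sets each summarise several short probes, and the values are log2 signals, so that a difference of 1 is a 2-fold difference. The lines, H1650, H1693 and H1993, are lung cancer lines that the design text describes as overexpressing MARK2, a serine/threonine kinase that acts on microtubule-associated proteins. In each line the group KD received hairpin RNA (shRNA) against MARK2 by lentiviral transduction, with the sequence and number of hairpins not stated in the labels, and the group PLKO CONTROL received the empty pLKO vector by the same route, so every array is of transduced cells and none of untreated ones. Each of the 6 groups has 2 arrays, which the design text gives as biological replicates.

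The KLRC proteins, also called NKG2 proteins, are type II membrane receptors with a C-type lectin-like domain. NKG2A (from KLRC1) carries inhibitory motifs in its cytoplasmic tail, whereas NKG2C (from KLRC2) and NKG2E (from KLRC3) pair with the adaptor TYROBP, also called DAP12. NKG2A and NKG2C reach the cell surface as pairs with CD94, the product of KLRD1, and CD94 with NKG2A or NKG2C recognises HLA-E. KLRK1 encodes NKG2D, a more distant relative that forms homodimers, signals through the adaptor HCST (DAP10) and binds stress-induced ligands such as MICA and the ULBP proteins. Natural killer cells and subsets of T cells are their usual site of expression.

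In the RefSeq annotation of GRCh38.p14 the members lie in 1 stretch of chromosome 12. KLRD1 spans 10238961 to 10329608 and has 7 probe sets. KLRK1 spans 10372353 to 10390041, and its 2 probe sets are shared with the readthrough gene KLRC4-KLRK1, which spans 10372353 to 10410146. KLRC4 spans 10407384 to 10409757 and has 1 probe set. KLRC3 spans 10412315 to 10420595 and has 4 probe sets. KLRC2 spans 10430599 to 10436010 and KLRC1 spans 10442264 to 10454685; each has 1 probe set of its own, and 1 more is shared between both. The ending _x_at marks a set with probes that can also match other sequences, and _s_at a set that reads several genes. Because KLRC1, KLRC2 and KLRC3 are close paralogs, and because the only own set of KLRC1 is an _x_at set, signals of KLRC1 and KLRC3 cannot be told apart with certainty by these probes.

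The stretch before the start of transcription is shown for KLRC3 and KLRC1, the genes whose signals were higher together. RefSeq promoter windows were given for 3 of the 6 genes, KLRC1, KLRC3 and KLRC4. Each window holds the 250 bases upstream of the start in GRCh38.p14, on the minus strand, 5′ to 3′. Capitals in the KLRC3 window mark runs of at least 10 bases that also stand in the KLRC4 window.

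KLRC3, chr12:10420596-10420845: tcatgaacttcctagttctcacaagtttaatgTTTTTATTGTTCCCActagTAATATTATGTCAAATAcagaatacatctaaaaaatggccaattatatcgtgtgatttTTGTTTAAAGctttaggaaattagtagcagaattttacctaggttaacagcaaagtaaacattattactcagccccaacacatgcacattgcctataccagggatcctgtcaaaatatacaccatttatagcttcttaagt
KLRC1, chr12:10454686-10454935: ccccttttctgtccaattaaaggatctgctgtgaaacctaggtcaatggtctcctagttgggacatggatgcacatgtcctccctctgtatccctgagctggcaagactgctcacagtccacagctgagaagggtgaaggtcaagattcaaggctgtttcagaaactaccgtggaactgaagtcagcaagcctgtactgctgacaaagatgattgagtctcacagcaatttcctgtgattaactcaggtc

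The KLRC3 and KLRC4 windows share 3 such runs, 42 bases in all, of which the longest is 17 bases. No run of 10 bases is shared between KLRC3 and any of the 3 KLRC1 windows, where the longest shared runs are 8, 7 and 7 bases. With whole windows aligned, 57.0% of columns were identical between KLRC3 and KLRC4. Between KLRC3 and the KLRC1 windows it was 49.8%, 50.3% and 52.2%. The windows follow the annotated starts, and a link between their sequences and the signals was not tested. TATAAA, the core of the TATA box, was found once in the KLRC3 window and once in the KLRC4 window, reading both strands, and in 10.7% of 35116 windows of the same length. The AP-1 motif TGANTCA, the GAS motif TTCNNNGAA and the cyclic AMP response motif TGACGTCA were in none of the 5 KLRC windows, against 6.57%, 6.57% and 1.65% of all windows. Only TATAAA was found, so no match overlapped another, and the matches describe letters only.

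Signal was first set against the background of the arrays. Olfactory receptor genes, which lung lines are not known to express, served as the reference, with 359 probe sets. Their median signal ran from 4.61 to 4.98 across the arrays and their 95th percentile from 6.24 to 6.62. The KLRC3 probe set 11734394_at lay above that 95th percentile on 10 of 12 arrays, the exceptions being both H1693 PLKO CONTROL arrays. Probe sets 11738935_a_at and 11734395_x_at of KLRC3 were above it on 7 arrays each. The remaining KLRC3 set, 11738936_x_at, and the KLRC1 sets 11732927_x_at and 11731848_s_at (shared with KLRC2) were above it on 6 arrays each, the H1650 KD arrays and all H1993 arrays. The KLRK1 set 11727695_a_at was above it on the 2 H1993 KD arrays. The other 10 probe sets, namely KLRC2's own, KLRC4's, all 7 of KLRD1 and the second of KLRK1, were above it on no array.

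MARK2, the targeted gene, was at 7.76 and 7.97 on the H1693 PLKO CONTROL arrays and at 6.62 and 6.57 on the KD arrays, and in H1993 at 9.17 and 9.06 against 6.76 and 6.77. It fell by 1.27 on the log2 scale in H1693 (limma, SE 0.16, adjusted p = 0.000315) and fell by 2.35 in H1993 (adjusted p = 7.86e-06). In H1650 it was at 6.07 and 5.80 against 5.92 and 5.37, all below the olfactory receptor 95th percentile, and its difference of -0.29 did not pass (limma, adjusted p = 0.161). In H1650, KD is therefore the name of the labelled group, with no knockdown shown on these arrays.

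KLRC3 gave the following values with 11734394_at, the KLRC3 set with the highest mean. In H1650 the PLKO CONTROL arrays were at 7.28 and 7.40 and the KD arrays at 9.23 and 9.17. In H1693 the PLKO CONTROL arrays were at 5.58 and 5.42 and the KD arrays at 6.81 and 6.72. In H1993 the PLKO CONTROL arrays were at 8.87 and 8.88 and the KD arrays at 10.75 and 10.65. Both KD arrays therefore lay above both PLKO CONTROL arrays in each line. In RNA of whole cultures, more RNA per cell and more cells with the transcript cannot be told apart. KD minus PLKO CONTROL was 1.86 in H1650, 1.26 in H1693 and 1.83 in H1993, which is 3.63-fold in H1650 and 3.56-fold in H1993. The H1693 PLKO CONTROL arrays were not above the olfactory receptor 95th percentile, and taken against that percentile the fold there was at least 1.37-fold. Folds written as "at least" are taken in this way, and none is given where both groups lay below it. In order of level the groups ran from H1993 KD through H1650 KD, H1993 PLKO CONTROL, H1650 PLKO CONTROL and H1693 KD down to H1693 PLKO CONTROL, and no neighbouring groups in this order overlapped. The H1693 KD arrays, at percentiles 42.6 and 43.6 of all probe sets of their array, remained in the lower part of the array, whereas the H1993 KD arrays stood at 86.3 and 86.7.

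The other KLRC3 probe sets were also higher on the KD arrays of each line. For 11738935_a_at the H1650 arrays were at 6.41 and 6.56 for PLKO CONTROL and 8.36 and 8.48 for KD. The H1693 arrays of this set were at 3.73 and 3.52 for PLKO CONTROL and 5.74 and 5.81 for KD. The H1993 arrays were at 8.05 and 8.03 for PLKO CONTROL and 10.14 and 10.02 for KD. The change of this set was 1.93 in H1650, 2.15 in H1693 and 2.04 in H1993, which is 3.82-fold in H1650 and 4.12-fold in H1993. In H1693 its level moved from the lower tail of the array, percentiles 3.68 and 5.76, to percentiles 29.1 and 30.6, with both groups below the olfactory receptor 95th percentile. Set 11734395_x_at was higher by 2.03, 1.77 and 2.01 in H1650, H1693 and H1993. Set 11738936_x_at was higher by 1.5, 1.23 and 1.82. In this last set 1 H1693 PLKO CONTROL array stood at 4.98 and the other at 3.89, a gap nearly as wide as the change itself, and leaving out the array at 4.98 gave a change of 1.78 and leaving out the array at 3.89 gave 0.68.

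KLRC1, the inhibitory member, was read by its own set 11732927_x_at. In H1650 it was at 5.89 and 5.83 on the PLKO CONTROL arrays and at 7.17 and 7.16 on the KD arrays. In H1693 it was at 4.91 and 4.79 against 6.05 and 5.89. In H1993 it was at 7.89 and 7.55 against 9.19 and 8.74. No line had overlapping groups, and the changes were 1.31, 1.12 and 1.25 in H1650, H1693 and H1993. The H1993 change is 2.37-fold and the H1650 change at least 1.67-fold, and in H1693 both groups lay below the olfactory receptor 95th percentile.

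The set shared by KLRC1 and KLRC2, 11731848_s_at, was at 5.82 and 5.97 on the H1650 PLKO CONTROL arrays and at 7.60 and 7.52 on the KD arrays. In H1693 it went from 4.10 and 3.97 to 5.85 and 5.96. In H1993 it went from 8.72 and 8.59 to 9.96 and 9.78. Its changes were 1.66, 1.87 and 1.22, at least 2.19-fold in H1650, with both H1693 groups below the olfactory receptor 95th percentile. KLRC2, the activating partner of CD94, was read alone by 11762954_at, and that set lay between 3.41 and 3.80 on all arrays. Its KD minus PLKO CONTROL differences were 0.15, -0.09 and 0.10. A signal of KLRC2 of its own was thus not seen above background, and which of KLRC1 and KLRC2 gives the signal of the shared set cannot be told apart.

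**Figure D1:**
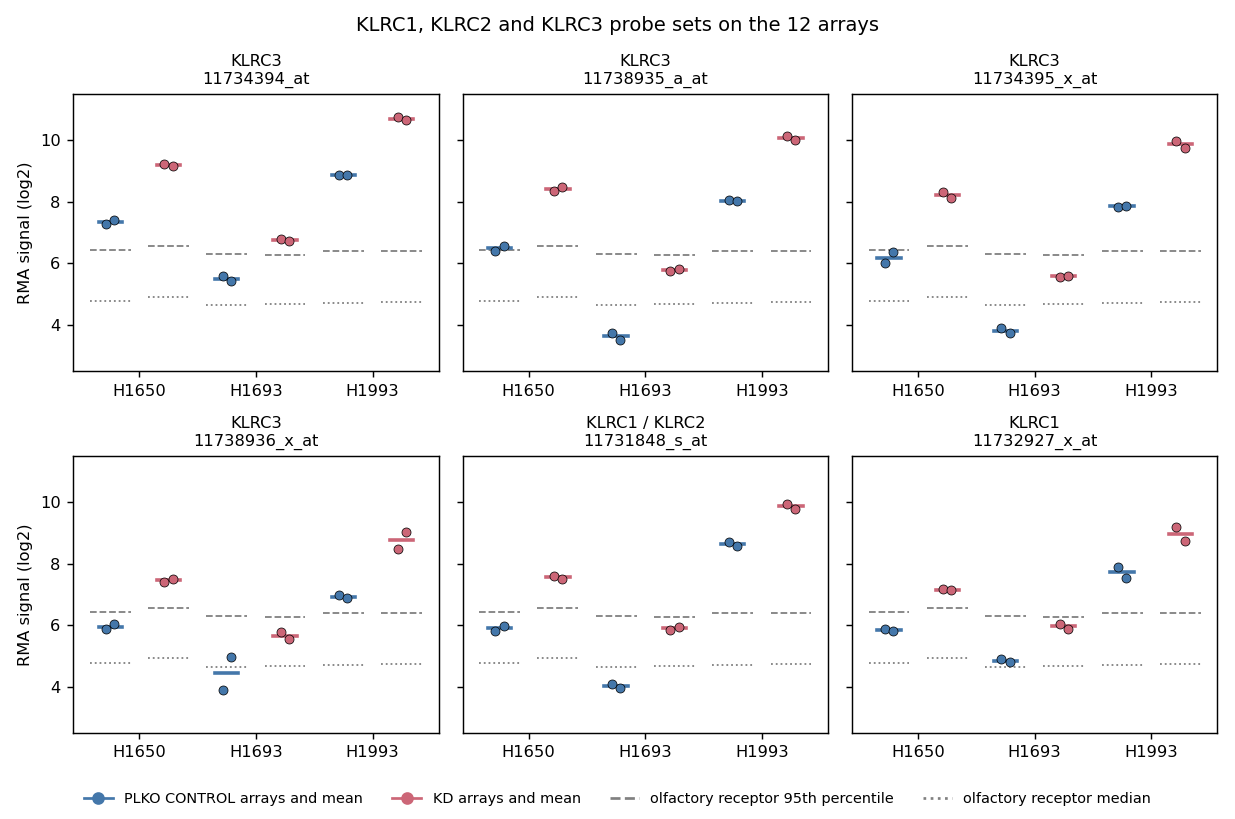
RMA signal (log2, y axis) of the 4 KLRC3 probe sets, the set shared by KLRC1 and KLRC2, and the KLRC1 set on the 12 arrays, by line (x axis). Points are arrays, thick bars are means of 2 arrays, and grey lines give the median and the 95th percentile of the 359 olfactory receptor probe sets, averaged over the arrays of a group. Both KD arrays lie above both PLKO CONTROL arrays in every panel and line, and the levels of the lines run from H1993 through H1650 to H1693.

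Over these 6 probe sets the KD minus PLKO CONTROL difference ran from 1.31 to 2.03 in H1650, from 1.12 to 2.15 in H1693 and from 1.22 to 2.04 in H1993. A difference of 1 or more in each of the 3 lines was found for 39 of 42408 tested probe sets, 0.092%, and these 39 include the 6. Both KD arrays lay above both PLKO CONTROL arrays in all 3 lines for 7 of the 17 members, the 6 sets named and 11727695_a_at of KLRK1, against 9.42% of the tested probe sets and 8.35% without a filter. Since the members were chosen on this contrast, these shares are printed for scale only. Differences among olfactory receptor probe sets, which lay near background, fell for 95% of them between -0.19 and 0.49 in H1650, -0.30 and 0.23 in H1693, and -0.24 and 0.27 in H1993. Their largest positive differences were 0.89, 0.32 and 0.36 in the same order. These values too are for scale only, since the KLRC sets were chosen for their higher KD signals.

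The levels on the PLKO CONTROL arrays were compared between lines with limma, adjusted over all tested probe sets. The H1650 arrays differed from those of the other lines in RNA quality, as given below. Its part in comparisons of H1650 with the other lines was not tested. The choice of the genes used these arrays against the KD arrays of the same line, but no comparison between lines. With 11734394_at of KLRC3, H1650 was higher than H1693 by 1.84 (SE 0.08, adjusted p = 2.01e-08). H1650 minus H1993 was -1.53 (adjusted p = 6.41e-08), and H1693 minus H1993 was -3.37, at least 5.92-fold (adjusted p = 2.30e-10). The KLRC1 set 11732927_x_at had the same order, with H1650 above H1693 by 1.01 (SE 0.15, adjusted p = 0.000145) and H1650 minus H1993 at -1.86 (adjusted p = 1.18e-06). The shared KLRC1 and KLRC2 set was at least 5.08-fold higher in H1993 than in H1693. The H1693 PLKO CONTROL arrays of all 6 sets were not above the olfactory receptor 95th percentile. For 11732927_x_at, 11731848_s_at and 11738936_x_at the H1650 PLKO CONTROL arrays were not above it either. In these sets H1650 and H1693 were therefore compared with both groups below it. For each of the 6 sets the PLKO CONTROL arrays of the lines did not overlap, as was so in this order for 9.39% of all tested probe sets, and all 6 passed the test in the 3 comparisons. Over all tested probe sets 32.5% were called higher in H1650 than in H1693, 31.6% lower in H1650 than in H1993, and 31.3% lower in H1693 than in H1993. For 11738936_x_at H1650 minus H1993 was -0.98 (adjusted p = 0.0131), and that call was lost without the first PLKO CONTROL array of H1650 (adjusted p = 0.0630) or of H1993 (adjusted p = 0.0601).

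The line with the lowest control level was also lowest on the KD arrays. All 6 sets had the order H1993, H1650, H1693 on the KD arrays with no overlap between lines, against 8.07% of all tested probe sets. The KD arrays of H1693 reached about the level of the H1650 PLKO CONTROL arrays with the KLRC1 sets, with mean differences of 0.11 for 11732927_x_at and 0.01 for 11731848_s_at. With the 4 KLRC3 sets these differences were -0.71 to -0.29, below the H1650 control level. H1693 minus H1993 on the PLKO CONTROL arrays ran from -4.62 to -2.50 over the 6 sets.

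KLRD1, the obligate partner CD94, did not share the pattern. Its set 11740450_a_at was at 6.0 and 5.79 on the H1650 PLKO CONTROL arrays and at 6.17 and 6.0 on the KD arrays. In H1693 it was at 5.84 and 5.95 against 5.91 and 5.84, and in H1993 at 6.12 and 5.93 against 6.27 and 5.81. The groups overlapped in every line, and the differences were 0.19, -0.02 and 0.01. Set 11753484_x_at lay between 5.62 and 5.89 on all arrays, and the other 5 sets lay between 3.44 and 4.42. Neither of the tested KLRD1 sets passed the test between the PLKO CONTROL arrays of any lines, with adjusted p between 0.260 and 0.997 in limma. KLRD1 thus stayed below the olfactory receptor 95th percentile also on the arrays where KLRC3 was above it.

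KLRK1, the gene of NKG2D, showed a difference in 1 line mainly. Its set 11727695_a_at was at 5.47 and 5.48 on the H1993 PLKO CONTROL arrays and at 6.90 and 7.35 on the KD arrays, a difference of 1.65, at least 1.65-fold. In H1650 it was at 5.28 and 5.33 against 5.78 and 5.75, a difference of 0.46. In H1693 it was at 4.81 and 4.92 against 4.92 and 5.11, a difference of 0.15. The H1650 difference lay within the range of 95% of olfactory receptor sets in that line, and so did the H1693 difference. The second set, 11727694_a_at, was higher by 0.78 in H1993, from 5.37 and 5.16 to 5.95 and 6.13. In H1650 it differed by 0.05, and in H1693 the difference was -0.28, with KD arrays at 5.10 and 4.96 below PLKO CONTROL arrays at 5.19 and 5.44. Both sets also read the readthrough KLRC4-KLRK1, and the 2 transcripts cannot be told apart here. On the PLKO CONTROL arrays, H1693 minus H1993 was -0.61 for 11727695_a_at (limma, SE 0.13, adjusted p = 0.00187). It was higher in H1650 than in H1693 by 0.44 (limma, adjusted p = 0.0127), a call lost without the second H1650 array (adjusted p = 0.0573) or the first H1693 array (adjusted p = 0.0773).

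KLRC4, whose gene lies between KLRC3 and KLRK1, was at 3.18 to 3.49 on all arrays, within the lowest 3.40% of probe sets on each. Its differences were 0.00, 0.10 and 0.13. Of the 17 members 10 passed the filter on dim signal, a log2 value of 5 on at least 2 arrays, and KLRC4, KLRC2's own set and 5 of the KLRD1 sets did not.

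**Figure D2:**
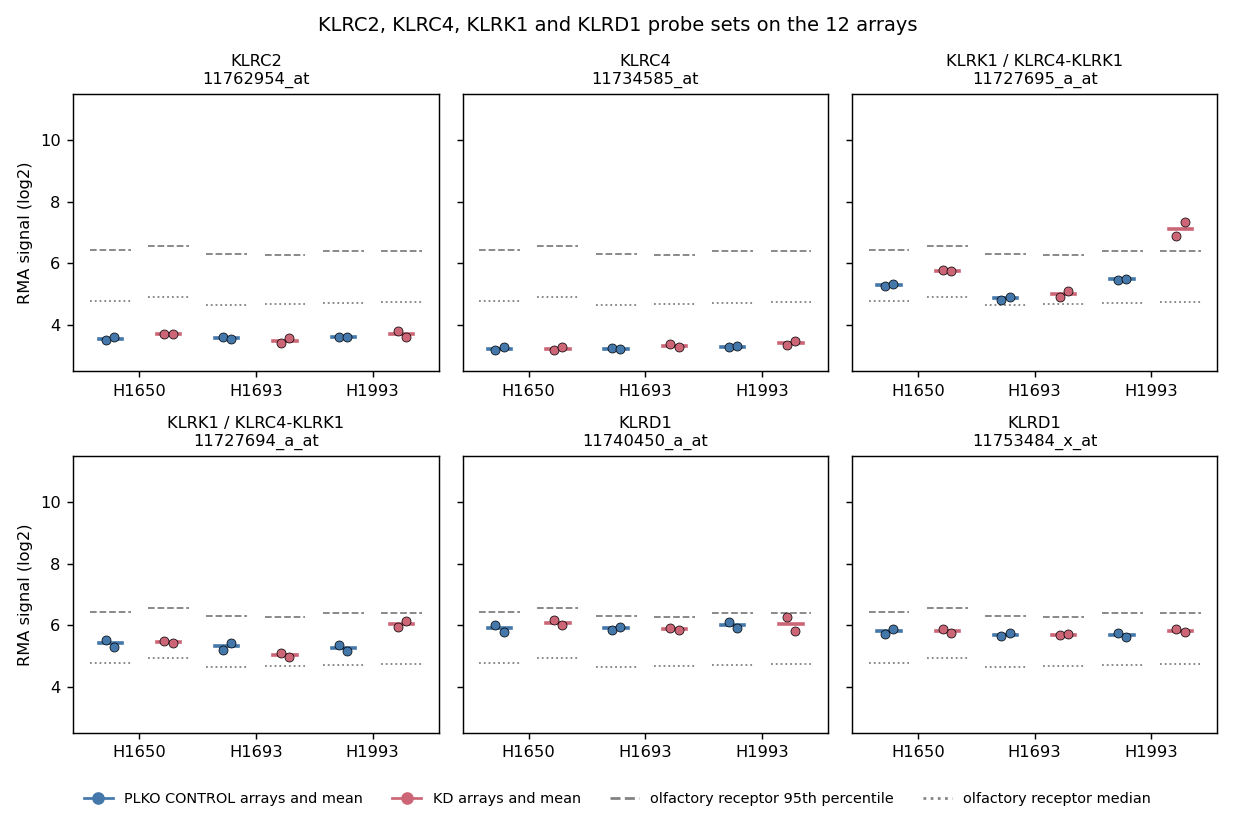
RMA signal (log2, y axis) of the own KLRC2 set, the KLRC4 set, both KLRK1 sets and the 2 KLRD1 sets with the highest means on the 12 arrays, by line (x axis), drawn as in the plot of the KLRC3 and KLRC1 sets. Only the KLRK1 set 11727695_a_at crosses the olfactory receptor 95th percentile, on the H1993 KD arrays at 6.90 and 7.35.

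**Figure D3:**
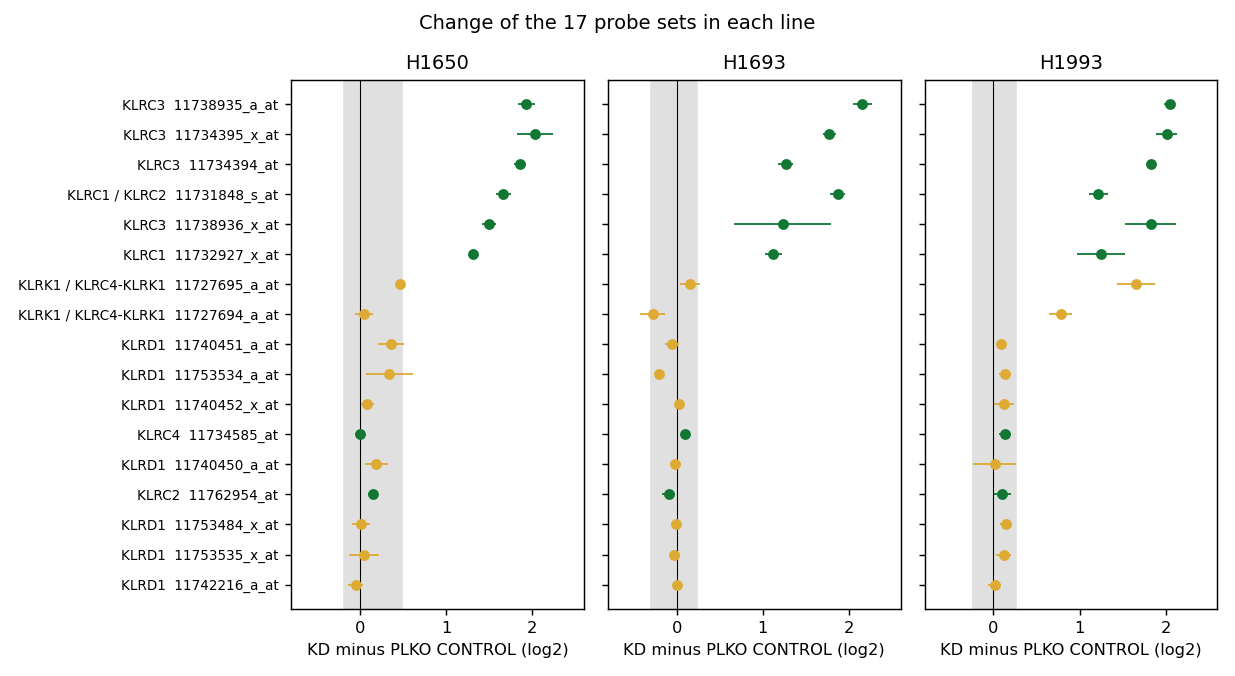
KD minus PLKO CONTROL (log2, x axis) for the 17 probe sets (y axis), ordered by their mean over the lines, 1 panel a line. Bars are the pooled SD of the 2 groups of 2 arrays, grey bands hold 95% of the olfactory receptor probe sets, green marks KLRC genes and yellow KLRK1 and KLRD1. The 6 KLRC1, KLRC2 and KLRC3 sets above 1 stand apart from the rest in H1650 and H1693, and in H1993 the KLRK1 set at 1.65 joins them.

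RNA quality differed in 1 line. The GAPDH control sets, whose 3′ minus 5′ difference grows as RNA is shortened, gave 2.68 ± 0.56 (SD, n = 2) on the H1650 PLKO CONTROL arrays and 6.82 ± 0.07 on the H1650 KD arrays. In H1693 and H1993 all arrays were between -0.12 and 0.02. The measure thus differed between the H1650 groups, where 51.7% of tested genes were called with a median change of 0.15 over all of them, and its part in the H1650 values was not tested. It also differed between the PLKO CONTROL arrays of H1650 and those of H1693 and H1993. Its part in the differences between lines was not tested. The 6 KLRC sets were higher by 1.12 to 2.15 in H1693 and by 1.22 to 2.04 in H1993, where that measure was near 0, and by 1.31 to 2.03 in H1650.

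Neighbouring genes were taken as the 12 protein-coding genes on each side of the members, of which 21 were measured and 11 passed the filter. Averaged over the lines, 8 of the 11 passed the test, against 47.1% of all tested genes; 7 were higher and 1 lower, against 28.4% and 18.8%. The median change of the 11 was 0.24, beside 0.04 over all tested genes. In each line separately 6, 3 and 3 of them were called in H1650, H1693 and H1993, against 51.7%, 30.6% and 30.9% of genes. Without H1650 the count was 5, where 39% of genes were called, and by the median of all probe sets of a gene it was 4, where 46.9% were called. None of the 11 had a change of 1 or more in all 3 lines, which only 0.092% of all tested probe sets had.

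STYK1, a receptor-like kinase gene beyond KLRC1, was at 8.69 and 8.85 on the H1650 PLKO CONTROL arrays and at 9.71 and 9.77 on the KD arrays. In H1993 it was at 7.71 and 7.76 against 9.05 and 8.78, and in H1693 at 7.54 and 7.21 against 7.37 and 7.60. It rose by 0.97 in H1650 (limma, adjusted p = 0.000167) and by 1.18 in H1993 (adjusted p = 0.000142), and the difference in H1693 was 0.11 (adjusted p = 0.609). Its second probe set differed by -0.58 in H1650, 0.20 in H1693 and 1.05 in H1993, so the H1650 direction rests on the choice of probe set. OLR1, a scavenger receptor gene between the lectin genes on the other side, rose in H1650 by 1.29 (limma, adjusted p = 9.26e-06). It differed by -0.10 in H1693 and 0.12 in H1993, and its mean change was 0.01 without H1650. Its other 3 probe sets differed by -0.51 to -0.25 in H1650. PRR4, a proline-rich protein gene, had a mean change of 0.40 (limma, SE 0.08, adjusted p = 0.0022), and MAGOHB, the nearest tested gene above KLRC1, changed by -0.69 in both H1693 and H1993 and by 0.36 in H1650 (limma, adjusted p = 0.0359), a call lost without the first PLKO CONTROL array (adjusted p = 0.244) or the first KD array (adjusted p = 0.232) of H1650, or either KD array of H1693 (adjusted p = 0.0513). The second MAGOHB probe set differed by 0.30 in H1650, -0.19 in H1693 and -0.03 in H1993, so the size of the fall rests on the choice of probe set. CLEC7A, a receptor gene for fungal glucans in myeloid cells, rose by 0.91 in H1693 (limma, adjusted p = 0.000860), from 3.89 and 3.77 to 4.66 and 4.82, all below the olfactory receptor 95th percentile. Of its 11 other probe sets 1 differed by 0.91 there and the rest by -0.10 to 0.34.

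**Figure D4:**
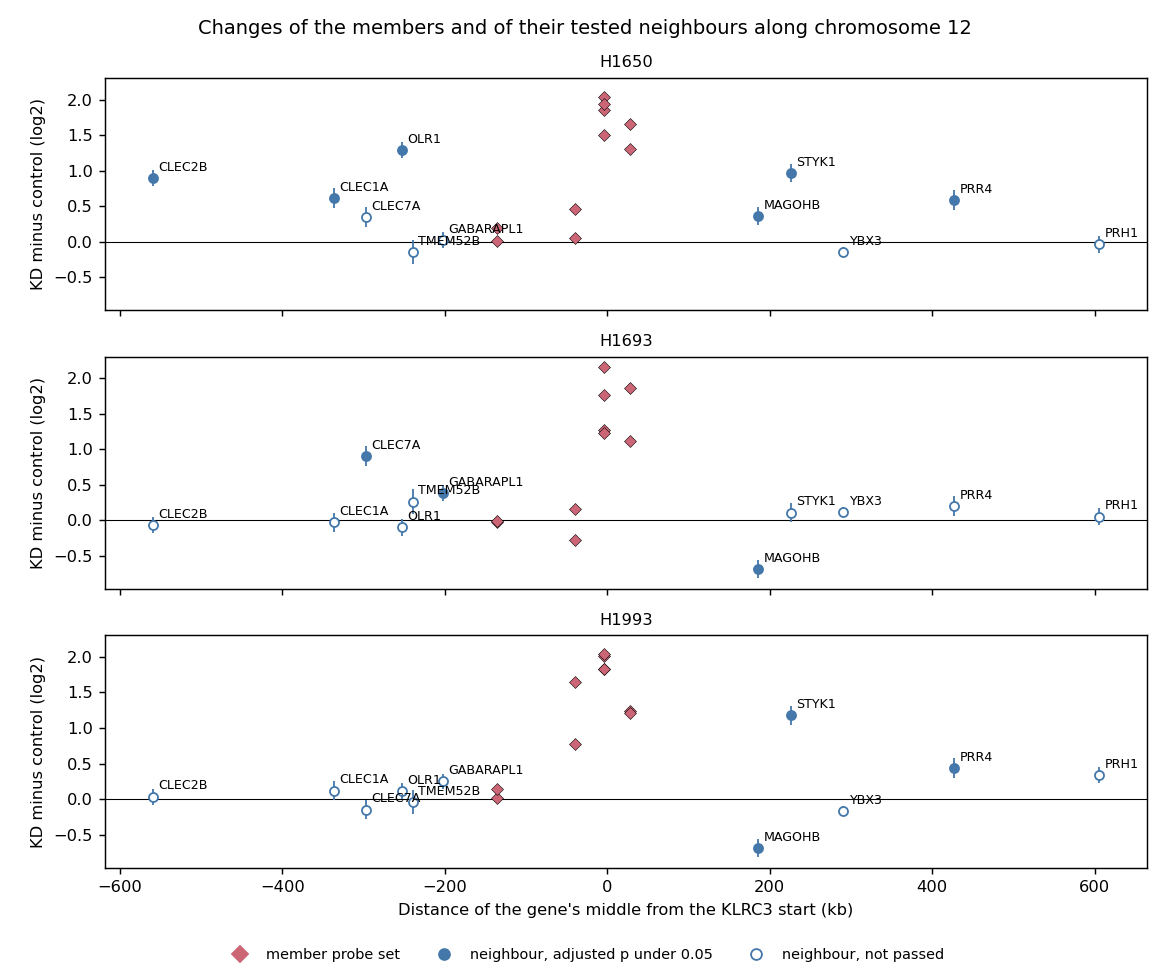
KD minus PLKO CONTROL (log2, y axis) for the 10 member probe sets past the filter and the 11 tested neighbours, with the set shared by KLRC1 and KLRC2 placed at KLRC1, against the distance of the middle of the gene from the start of KLRC3 (kb, x axis), 1 panel a line. Bars on neighbours are SE from limma, and filled points passed an adjusted p of 0.05. The KLRC sets between 1.12 and 2.15 stand above all neighbours in H1693, while STYK1 at 1.18 in H1993 and OLR1 at 1.29 in H1650 come close to the lowest of them.

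The other KLR genes and C-type lectin genes of the natural killer gene complex were taken as a list. Of its 17 genes, 10 of which are also neighbours, 16 were measured and 8 tested. Averaged over the lines, 6 of the 8 rose, where 28.4% of all tested genes did. The median change of the 8 tested genes was 0.33. Without H1650, 3 of the 8 were called, 2 higher and 1 lower, where 39% of genes were called. By the median of all probe sets of a gene it was 3 of 7, again 2 higher and 1 lower, against 46.9%. CLEC2D, which encodes a ligand of the receptor KLRB1, rose in each line, by 0.87 in H1650, 0.51 in H1693 and 0.57 in H1993. Its arrays were at 5.92 and 6.20 against 6.97 and 6.90 in H1650, at 5.47 and 5.38 against 5.83 and 6.04 in H1693, and at 5.28 and 5.18 against 5.87 and 5.74 in H1993. The groups did not overlap, and all 3 other CLEC2D probe sets were higher in each line, by 0.16 to 0.98. The H1693 call (limma, adjusted p = 0.00724) was lost without the second PLKO CONTROL array (adjusted p = 0.0584) or the second KD array (adjusted p = 0.0699). KLRF1, a receptor gene of natural killer cells, had a mean change of 0.43 (limma, adjusted p = 0.00575), which was 0.29 without H1650 (adjusted p = 0.101). Its H1650 and H1993 arrays, at 4.12 to 5.48, were all below the olfactory receptor 95th percentile. Its other probe sets differed by 0.17 to 0.42 in H1650, by -0.11 to 0.27 in H1693 and by -0.26 to 0.14 in H1993. KLRB1 and CD69, lymphocyte lectins of the same complex, did not pass the filter.

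The ligands of these receptors are genes that epithelial cells do express. Of 14 ligand genes 13 were measured and tested, and 8 rose when averaged over the lines, where 28.4% of all tested genes did. The median change of the 13 tested ligand genes was 0.39, beside 0.04 over all tested genes. HLA-E, the ligand of CD94 with NKG2A or NKG2C, was at 10.92 and 10.76 on the H1650 PLKO CONTROL arrays and at 10.55 and 10.48 on the KD arrays. In H1693 it was at 10.70 and 10.69 against 11.08 and 11.07, and in H1993 at 9.28 and 9.25 against 10.31 and 10.49. It fell by 0.32 on the log2 scale in H1650 (limma, adjusted p = 0.0105), rose by 0.39 in H1693 (adjusted p = 0.00772) and rose by 1.13 in H1993 (adjusted p = 1.49e-05). The H1650 call was lost without its first PLKO CONTROL array (adjusted p = 0.0789). Its 5 other probe sets were all higher in H1693, by 0.25 to 0.57, and in H1993, by 0.80 to 1.47, while in H1650 they differed by -0.68 to 0.10. HLA-B, a class I gene whose leader peptide can load HLA-E, rose by 0.50, 0.50 and 2.37 in H1650, H1693 and H1993. HLA genes are near-identical in places, and their probe sets may read each other.

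Of the NKG2D ligands, ULBP1 was at 8.22 and 8.36 on the H1693 PLKO CONTROL arrays and at 9.72 and 9.93 on the KD arrays. It rose by 1.54 there, by 0.74 in H1650 and by 0.56 in H1993 (limma, adjusted p = 4.20e-05, 0.00119 and 0.0127). In H1650 it was at 6.31 and 6.09 against 6.82 and 7.06, with the PLKO CONTROL arrays below the olfactory receptor 95th percentile. In H1993 it was at 4.63 and 4.43 against 5.23 and 4.94, all below that percentile. The H1993 call was lost without the second PLKO CONTROL array (adjusted p = 0.0944) or the first KD array (adjusted p = 0.104). Both other ULBP1 probe sets were higher in each line, by 0.05 to 1.22. MICA rose by 0.76 in H1650 and by 0.74 in H1993, and differed by 0.25 in H1693 (limma, adjusted p = 0.0658), which passed with a replicate block (adjusted p = 0.0376) and with a variance trend (adjusted p = 0.0208). MICB rose by 0.63 in H1650 and by 0.84 in H1993 but fell by 0.61 on the log2 scale in H1693. Its 3 other probe sets were all lower in H1693 and higher in H1993, but in H1650 they differed by -1.96 to -0.28, so the H1650 direction rests on the choice of probe set. KLRK1 was thus highest on the H1993 KD arrays, while ULBP1 had its largest change in H1693, where KLRK1 stayed near background.

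Of 15 adaptor and signalling genes of these receptors 14 were tested, and 4 were called for the mean change, 2 higher and 2 lower, where 47.1% of all tested genes were called, 28.4% higher and 18.8% lower. The median change was -0.02. HCST, the adaptor of NKG2D, was at 5.87 to 7.43 over all arrays and had a mean change of 0.11 (limma, adjusted p = 0.272). TYROBP, the adaptor of NKG2C and NKG2E, was at 7.38 to 8.0 and had a mean change of -0.08 (limma, adjusted p = 0.450). PIK3R1, a regulatory subunit of phosphoinositide 3-kinase, rose in H1650 by 0.88 and differed by 0.01 in both H1693 and H1993. Its 7 other probe sets differed by -0.62 to 0.79 in H1650, 3 of them lower, and by -0.41 to 0.02 in H1993. PLCG2, a phospholipase of lymphoid signalling, rose in H1650 by 0.71, and its mean change of 0.17 became -0.09 without H1650. PTPN11, a phosphatase that binds inhibitory receptors, had a mean change of -0.27 (limma, SE 0.06, adjusted p = 0.00564). Its 3 other probe sets were higher in H1650, by 0.14 to 0.25, and lower in H1693 and H1993.

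Markers of natural killer and T lymphocytes were read on the same arrays, since the genes described are lymphoid. Of 30 markers 29 were measured and 23 tested, and 3 rose when averaged over the lines, XCL1, IL2RB and CD8A, where 28.4% of all tested genes did. The median change of the 23 tested markers was 0.05. The summed linear signal of the 29 markers was 2055 to 2187 on the H1650 PLKO CONTROL arrays and 2361 to 2447 on the KD arrays. It was 2052 to 2161 against 1981 to 1997 in H1693, and 2098 to 2254 against 2334 to 2464 in H1993. On the KD arrays the sum was lower in H1693 and higher in H1650 and H1993. KLRC signals were higher on them in all 3 lines. EOMES, the marker with the highest mean signal, changed by 0.16 in H1650, -0.67 in H1693 and 0.65 in H1993. The sum and EOMES moved in the same direction in each line. On the H1693 arrays EOMES went from 8.44 and 8.49 to 7.75 and 7.83, and on the H1993 arrays from 8.51 and 8.57 to 9.21 and 9.18. The part of EOMES in the sum was not tested, so the sum does not show the direction of the markers as a whole. The part of lymphocyte RNA in the KLRC values was not tested beyond these levels. Between 7 and 10 markers exceeded the olfactory receptor 95th percentile in each group, and 7 did so in every group, namely NCAM1, NKG7, GNLY, NCR1, CD7, EOMES and IL2RG. PTPRC, the pan-leukocyte gene CD45, had a mean signal of 3.89, FCGR3A of 3.19 and CD226 of 3.77, all below the olfactory receptor median. Of 6 epithelial markers all 6 exceeded the 95th percentile in each group.

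IL2RB, a chain of the interleukin 2 and 15 receptors, was at 5.78 to 6.01 on all PLKO CONTROL arrays and at 6.22 to 6.47 on all KD arrays. It rose by 0.40 in H1650, 0.58 in H1693 and 0.43 in H1993 (limma, adjusted p = 0.00446, 0.00109 and 0.00551). Every array but the second H1693 KD array was below the olfactory receptor 95th percentile for IL2RB. XCL1, a chemokine of activated lymphocytes, rose by 1.03 in H1693, from 4.77 and 4.89 to 5.67 and 6.06, all below the olfactory receptor 95th percentile, and differed by 0.02 in H1650. Its rise of 0.48 in H1993 (limma, adjusted p = 0.0147) was lost without the second PLKO CONTROL array (adjusted p = 0.102), the first KD array (adjusted p = 0.0777) or the second (adjusted p = 0.0509). CD8A had a mean change of 0.23 (limma, adjusted p = 0.0334), a call lost when any of 9 single arrays was left out (adjusted p 0.0517 to 0.0944).

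The genes with patterns most like KLRC3 were found by the root mean square difference from 11734394_at over the 12 arrays, after each line was centred on its PLKO CONTROL mean, among 18127 genes. This measure uses the same changes by which KLRC3 was chosen and is a description. TP53INP1, a target gene of p53 that acts in cell death and autophagy, was nearest at 0.09, with changes of 1.98, 1.16 and 1.72 in H1650, H1693 and H1993. PROS1, which encodes the anticoagulant protein S, followed at 0.21 with 1.65, 1.02 and 1.51, and BANK1, a B-cell scaffold gene, at 0.22 with 1.51, 1.04 and 1.62. ATXN1, SAMD9L and MAN1A1 were at 0.23, 0.25 and 0.26. The second TP53INP1 probe set differed by only 0.32, 0.28 and 0.09, so its nearness rests on 1 probe set. The other ATXN1 set differed by 0.26, 0.25 and 0.46. In H1650 the other sets of PROS1 differed by 0.87 and 1.14 and those of BANK1 by 0.34 and 1.20. Those of SAMD9L differed there by 0.03 to 1.79 and those of MAN1A1 by -0.04 to 1.19. The other KLRC1 and KLRC3 sets lay at 0.24 to 0.38 by the same measure, 11727695_a_at of KLRK1 at 0.75, and the remaining members at 1.07 to 1.19.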

How the data were processed

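Total RNA from 12 cultures was read on Affymetrix PrimeView arrays. The submitters' processing notes name RMA and Affymetrix Expression Console, without versions, as the way the authors made the deposited log2 values. RMA corrects background, brings the arrays to 1 distribution and merges probes into sets, which narrows differences between dim signals. Names come from the platform annotation, and gene positions from the RefSeq table of GRCh38.p14. A gene that is no member is represented by its single-gene probe set with the highest mean.

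One model with a mean for each of 6 groups was fitted in limma 3.58.1 (R 4.3.3, eBayes, 6 residual degrees of freedom) to the 42408 probe sets with a log2 signal of 5 on at least 2 arrays, leaving out 102 control sets. Tests are two-sided, with Benjamini-Hochberg adjustment over these sets and a threshold of 0.05. The script was tested on simulated data. With 2 arrays a group, their number limits precision, and p-values measure the spread between replicate cultures. From each list up to 3 called genes with the largest mean change were named, besides HLA-E, HCST and TYROBP; MAGOHB, CLEC7A, MICB, KLRB1, CD69, PTPRC, FCGR3A, CD226 and the lymphocyte markers listed as above background were named after their values were seen. The members and lists were chosen with earlier results of these data known. No 2 replicate arrays were duplicates: at most 0.0992% of their values were identical. The alternatives were each array left out, other filters, quantile normalization, median centring, a variance trend, a replicate block, leaving out H1650, and the median of a gene's probe sets.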

Additional observations from a re-analysis of the deposited data

Results flagged for a closer look

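Some named genes that are no members had a knockdown change that differed between the 3 lines. This was by limma's F test, adjusted over all tested probe sets. The share of all tested probe sets that passed this F test was not taken, so the number of genes is no result. MICB, MAGOHB and CLEC7A were named after their values were seen. Adjusted p was 1.53e-06 for HLA-B, 1.07e-05 for MICB, 2.72e-05 for HLA-E, 0.000160 for OLR1, 0.000326 for PLCG2, 0.000975 for MAGOHB, 0.00199 for STYK1, 0.00248 for XCL1, 0.00369 for CLEC7A, 0.00411 for ULBP1, 0.00646 for PIK3R1 and 0.0112 for MICA. H1993 had the largest change for HLA-B (2.37), HLA-E (1.13), STYK1 (1.18) and MICB (0.84), H1693 for ULBP1 (1.54), XCL1 (1.03) and CLEC7A (0.91), and H1650 for OLR1 (1.29), PLCG2 (0.71), PIK3R1 (0.88) and MICA (0.76). MAGOHB changed by 0.36 in H1650 and by -0.69 in H1693 and H1993. The H1650 KD arrays had a GAPDH 3′ minus 5′ difference of 6.82 against 2.68 on the PLKO CONTROL arrays, and its part in these differences was not tested.

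Among the members, 2 probe sets had all KD arrays below PLKO CONTROL in H1693 and above it in H1993. The KLRK1 set 11727694_a_at changed by -0.28 in H1693 and 0.78 in H1993. The KLRD1 set 11753534_a_at, which did not reach the signal filter, changed by -0.21 and 0.13. Neither difference between lines was tested.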

How the results depend on the processing

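The order of the KLRC1 and KLRC3 control levels kept its direction under all alternatives run, and its calls under all but 2 arrays left out for 11738936_x_at, given above. The KD minus PLKO CONTROL differences of the 6 KLRC sets stayed at 1.02 or more, except 0.68 for 11738936_x_at in H1693. Probe sets called in H1693, 12100 in all, ranged from 7819 to 13273 with 1 array left out. Neighbours called for the mean of the 3 lines fell from 8 to 4 with the median of all probe sets of a gene and to 5 without H1650 (6 to 8 with 1 array left out), and other KLR and lectin genes from 6 to 3 under both (4 to 7). Lymphocyte markers called ranged from 2 to 5. The causes were not tested.

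With the replicate number as a block, which leaves the pairing of arrays to labels that their deviations do not bear out (correlations of -0.11, -0.17 and 0.30 in H1650, H1693 and H1993), 21387, 11623 and 11656 probe sets were called in these lines, and 8 neighbours.

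Signs turned mainly where no call was made. With 1 array left out, KLRD1 11740450_a_at ran from -0.11 to 0.11 for H1650 minus H1693, KLRD1 11753484_x_at from -0.036 to 0.075 for H1693 minus H1993, and KLRK1 11727694_a_at from -0.027 to 0.22 for H1650 minus H1693 and from -0.072 to 0.18 for H1693 minus H1993. KD minus PLKO CONTROL in H1693 ran from -0.055 to 0.27 for STYK1, from -0.19 to 0.00045 for OLR1 and from -0.069 to 0.088 for PIK3R1. In H1993 it ran from -0.15 to 0.18 for PIK3R1, from -0.045 to 0.26 for CD8A and from -0.37 to 0.078 for CLEC7A, and in H1650 from -0.056 to 0.098 for XCL1 and from -0.083 to 0.24 for TYROBP. Under quantile normalization and median centring KLRD1 11753484_x_at gave -0.019 and -0.0077, and PIK3R1 -0.026 and -0.030 in H1693 and -0.0094 and -0.010 in H1993. The mean change of PLCG2, called at 0.17 (limma, adjusted p = 0.0113), was -0.093 without H1650 (adjusted p = 0.247).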
